A study of Mus musculus with 8 samples.

Results

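Genes that mark the endothelium of blood and lymphatic vessels were followed in the ileum of diabetic KKAy mice that received voglibose or water. The members were chosen as 32 genes known from the biology of these vessels. Of these, 30 had a named probe set among the 22206 of the array, and Egfl7 and Rasip1 were not analysed here. Blood vessel or general endothelial genes made up 24 of the 30, and 6 were genes of lymphatic endothelium, which in the gut wall lines the lacteals. Mmrn1, which marks lymphatic endothelium in mouse and is also made by platelets, was placed with the 6.

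All 8 mice were male KKAy, a strain with the yellow agouti allele that becomes obese and diabetic. Their age is given as 14 weeks at the start, so they were older when the ileum was taken. All were kept on high-fat food in which fat supplied 45% of the energy. After 4 weeks on it, 4 mice were gavaged every day with voglibose at 1 mg/kg, a blocker of intestinal alpha-glucosidases, and 4 with the same volume of water, in both cases for 8 weeks. RNA of a piece of ileum of about 4 cm was measured on 1 Affymetrix array per mouse, and no lean mice and no other segment of the gut enter the comparison. The values are log2 signals, and a step of 1 is a 2-fold change.

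Blood endothelium is held together by VE-cadherin (Cdh5) and the tight junction protein claudin-5 (Cldn5), and it depends on VEGF receptors and on the Tie receptors for growth and stability. In the intestinal villus, fenestrated capillaries under the epithelium take up sugars and amino acids, and VEGF-A signalling keeps their fenestrae. Each villus also holds a lacteal, a blind-ended lymphatic capillary that takes up chylomicrons and depends on VEGF-C and its receptor VEGFR3 (Flt4).

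The makeup of the pieces of ileum differed between mice, also between mice of 1 group. The mean of 8 enterocyte markers ran from -0.43 in water mouse 2 to 0.18 in voglibose mouse 2, relative to the mean of all mice. Their summed signal, which the brightest of them set, ran from 20.53 to 20.66 in water mice and from 20.60 to 20.71 in voglibose mice (log2). Fabp1, a fatty acid binding protein of enterocytes that was picked after its values were seen, had 12.54 in water mouse 2 and 16.22 in voglibose mouse 2. Slc5a1, Vil1 and Alpi were also lower in water mouse 2 than in voglibose mouse 2. Fabp2 (19.01 against 18.58), Epcam (17.30 against 16.99), Apoa1 and Cdh1 were higher there, so these markers did not move together. Among smooth muscle markers the mean of 8 genes lay 1.48 above the mean of all mice in water mouse 2 and at -1.49 relative to it in water mouse 4. Fabp6, a bile acid binding protein of enterocytes of the distal ileum, ran from 3.54 to 17.50. All 5 markers of the distal ileum had the lower mean in voglibose mice (median difference -0.76), beside 50.9% of all probe sets. Their list mean ran from -2.41 to 4.19 in water mice and from -2.54 to 0.55 in voglibose mice. At an unadjusted p under 0.05 (limma) there were 0 of 5, beside 7.52% of all probe sets. The part of the ileal position in the endothelial genes was not tested. Array medians lay between 5.89 and 5.94.

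The endothelial genes varied between mice about as much as the array as a whole. The SD between mice of 1 group ran from 0.15 (Robo4) to 0.50 (Eng) over the 30 members, with a median of 0.252, beside a median of 0.255 over all probe sets. The median SD was 0.19 for the enterocyte markers, 0.96 for the smooth muscle markers and 1.26 for 6 T and B cell markers. Of the 30 members, 16 had a mean signal above the median of all probe sets, 13 lay between the lower quartile and the median, and Sox17 lay below the lower quartile. Signals in the lower part of the scale hold more background, and differences are then too small.

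No member passed the test of voglibose against water, and neither did any other probe set (limma, Benjamini-Hochberg over all probe sets; 0 of 22206, 0%). Adjusted p of the members ran from 0.652 to 0.994. At an unadjusted p under 0.05 there were 2 of 30 members, or 6.67%, where 7.52% of all probe sets reached the same p, so the share of members was close to that of the array. The 2 were Vwf, with the higher signal in voglibose mice, and Esam, with the lower one. Without voglibose mouse 2 neither reached it, and without each of the other mice in turn 1 to 3 members did. In bulk tissue such as this, fewer endothelial cells and less RNA per cell cannot be told apart.

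The intervals show how large a change the arrays leave room for. The 95% interval of the difference lay within a 2-fold change in either direction for 29 of 30 members and within a 1.5-fold change for 13 of 30. Eng was the exception for the 2-fold limit, with an interval from -1.07 to 0.19. Blood members had a lower mean in voglibose mice for 14 of 24 genes, with a median difference of -0.10, and lymphatic members for 3 of 6, with a median of -0.02. Over all probe sets 50.9% had the lower mean in voglibose mice and the median difference was -0.005. The median of the blood members was 0.008 without voglibose mouse 4.

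**Figure D1:**
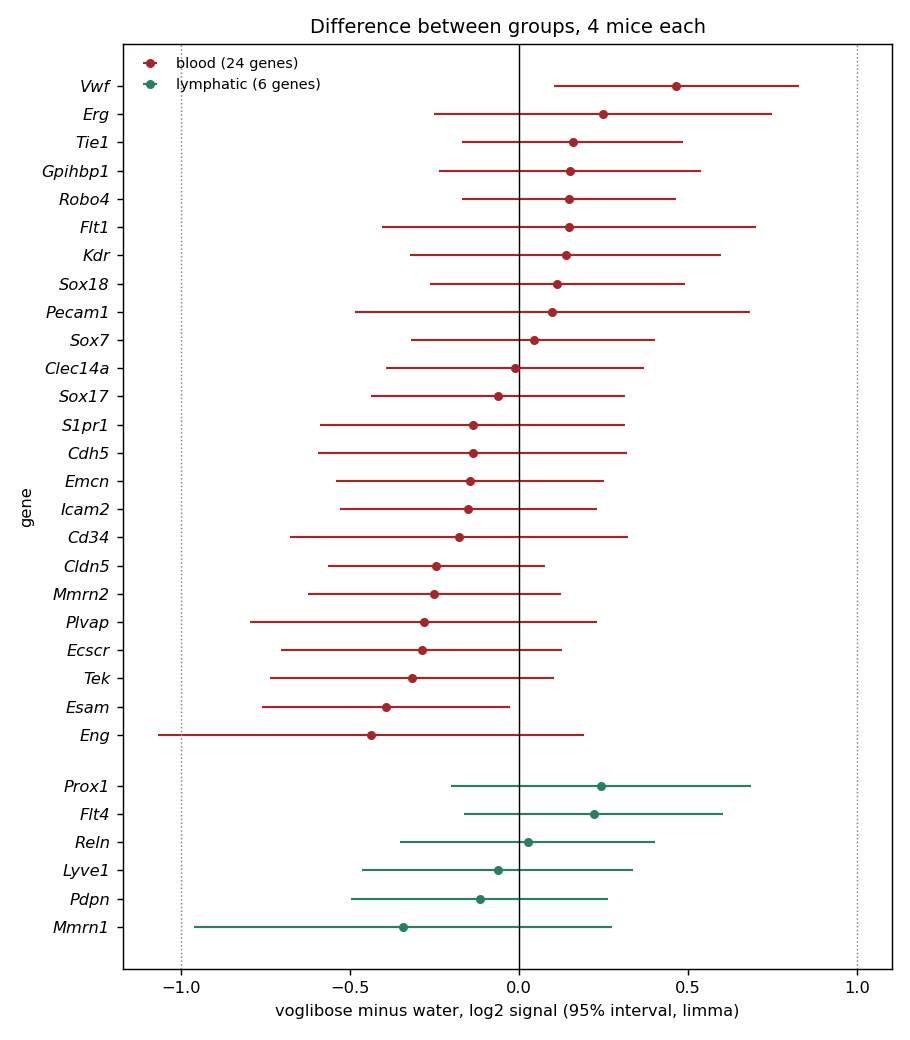
Difference between voglibose and water mice (log2 signal, horizontal axis) for each of the 24 blood (red) and 6 lymphatic (green) genes, with points for the difference and bars for limma's 95% interval, 4 mice in each group; dotted lines mark a 2-fold change. Only the intervals of Vwf (0.10 to 0.83) and Esam (-0.76 to -0.03) leave out 0, and only that of Eng passes a dotted line.

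The receptors through which endothelium senses growth factors were higher in voglibose mice for 5 of 8 genes and lower for 3, counting Flt4 of the lymphatic group (median difference 0.14). Kdr, which encodes VEGFR2, the main signalling receptor for VEGF-A, had 8.48, 8.71, 8.65 and 8.63 in the water mice. It had 9.05, 8.91, 8.98 and 8.08 in the voglibose mice. Voglibose mice 1 to 3 lay above all water mice and voglibose mouse 4 lay below them. The difference was 0.14 ± 0.21 (SE), and it ran from 0.04 without voglibose mouse 1 to 0.36 without voglibose mouse 4. The latter was the 1 of 8 such refits with an unadjusted p under 0.05 (0.0317), with no adjusted call.

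Flt1 encodes VEGFR1, a receptor that binds VEGF-A and restrains its action. Its signal was 6.84, 6.96, 6.86 and 6.99 in water mice and 6.96, 7.92, 6.78 and 6.58 in voglibose mice. The water mice lay close together, while voglibose mouse 2 stood high and voglibose mouse 4 low, and the difference of 0.15 ± 0.25 became -0.14 without voglibose mouse 2.

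Eng encodes endoglin, a co-receptor for BMP9 and other TGF-beta family ligands. It had 8.01, 7.56, 8.31 and 8.18 in water mice and 7.83, 7.96, 7.88 and 6.64 in voglibose mice. Voglibose mouse 4 was the lowest by a wide margin, and the groups overlapped apart from it. The difference of -0.44 ± 0.29 was the most negative of all members, and it was -0.13 without voglibose mouse 4.

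Tek encodes TIE2, the angiopoietin receptor, which steadies the resting vessel wall. It had 5.90, 6.13, 5.95 and 6.40 in water mice and 5.80, 5.72, 6.20 and 5.39 in voglibose mice. Only voglibose mouse 3 lay within the range of the water mice, and the difference was -0.32 ± 0.19 (-0.19 without voglibose mouse 4). Tie1, its partner receptor, differed by 0.16 ± 0.15, and Robo4, an endothelial guidance receptor that limits leakage, by 0.15 ± 0.14. S1pr1, the receptor for sphingosine 1-phosphate that strengthens junctions, differed by -0.14 ± 0.21 and by 0.008 without voglibose mouse 4.

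The promoters of the VEGF receptor genes and of both Tie receptor genes are shown, as the receptors, with the partner receptor Tie1, of the ligands described further on. The windows run from 250 bases before to 50 bases after the annotated start (RefSeq, GRCm38.p6): Kdr at chr5:75978406-75978705, minus strand, Flt1 at chr5:147725962-147726261, minus strand, Flt4 at chr11:49609429-49609728, plus strand, Tek at chr4:94739039-94739338, plus strand and Tie1 at chr4:118489800-118490099, minus strand. Capitals mark the cores CAGGAA and CCGGAA on either strand (TTCCTG and TTCCGG on the printed strand), to which ETS factors, the family of Erg, can bind. Overlapping matches count as separate matches.
Kdr: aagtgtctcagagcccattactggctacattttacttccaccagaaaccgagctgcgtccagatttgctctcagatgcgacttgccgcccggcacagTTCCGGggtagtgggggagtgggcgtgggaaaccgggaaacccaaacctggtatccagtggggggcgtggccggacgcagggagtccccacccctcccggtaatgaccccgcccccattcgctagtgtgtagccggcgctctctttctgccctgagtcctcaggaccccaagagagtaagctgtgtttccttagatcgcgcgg
Flt1: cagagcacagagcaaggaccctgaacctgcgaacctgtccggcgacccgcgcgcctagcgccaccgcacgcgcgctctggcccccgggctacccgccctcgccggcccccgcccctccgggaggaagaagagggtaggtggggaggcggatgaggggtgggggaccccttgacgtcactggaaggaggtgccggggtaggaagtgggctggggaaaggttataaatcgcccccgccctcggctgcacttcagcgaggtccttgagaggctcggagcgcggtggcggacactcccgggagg
Flt4: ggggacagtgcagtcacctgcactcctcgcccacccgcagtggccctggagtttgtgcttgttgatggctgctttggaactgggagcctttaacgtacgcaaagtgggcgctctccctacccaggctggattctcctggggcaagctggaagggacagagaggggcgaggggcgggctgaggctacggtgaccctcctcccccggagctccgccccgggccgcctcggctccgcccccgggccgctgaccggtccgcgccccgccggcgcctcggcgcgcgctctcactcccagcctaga
Tek: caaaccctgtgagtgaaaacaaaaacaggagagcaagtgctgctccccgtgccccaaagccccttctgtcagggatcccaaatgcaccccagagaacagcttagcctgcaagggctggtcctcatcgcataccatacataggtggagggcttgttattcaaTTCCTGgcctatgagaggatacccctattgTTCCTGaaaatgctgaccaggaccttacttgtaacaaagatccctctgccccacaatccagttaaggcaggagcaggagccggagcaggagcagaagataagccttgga
Tie1: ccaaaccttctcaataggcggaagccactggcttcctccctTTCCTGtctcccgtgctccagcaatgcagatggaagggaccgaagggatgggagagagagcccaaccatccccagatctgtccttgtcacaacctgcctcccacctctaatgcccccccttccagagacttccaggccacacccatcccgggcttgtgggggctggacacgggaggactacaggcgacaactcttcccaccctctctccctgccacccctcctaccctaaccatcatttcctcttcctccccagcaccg
Kdr and Tie1 hold 1 core each and Tek holds 2, while the windows of Flt1 and Flt4 hold none of these letters. Promoters were found for 16 of the 30 members, in 19 windows, and 11 of the 19 (57.9%) held at least 1 core, beside 41.4% of 32851 windows over all genes. CAGGAA was in 9 of the 19 (47.4%), beside 30.6% of all windows. CCGGAA was in 2 of the 19 (10.5%), beside 14.9% of all windows. Of the 7 genes with a window whose lowest signal was in voglibose mouse 4, described further on, 5 held a core, and of the 9 others 6 did. These matches describe the sequence and are not tested as binding sites.

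**Figure D2:**
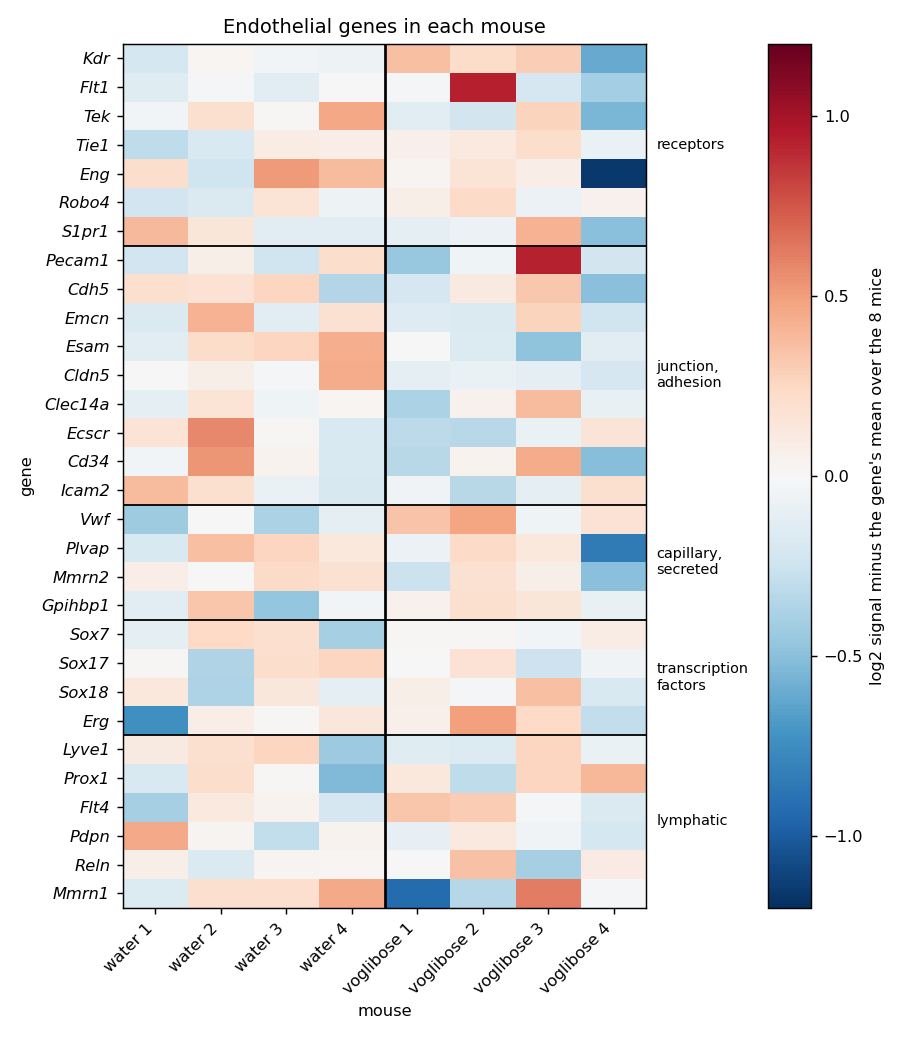
Log2 signal of each member (rows, grouped by role) in each mouse (columns) as the deviation from the mean of that gene over the 8 mice, from blue (lower) to red (higher), with a vertical line between water and voglibose mice. Voglibose mouse 4 is blue across many blood genes, such as Eng (6.64) and Kdr (8.08). Among the lymphatic rows Prox1 (6.82) is red in this mouse, while Flt4 (5.69) and Pdpn (6.99) are pale blue.

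Junction and adhesion genes had a lower mean in voglibose mice for 8 of 9 measured members, with differences from -0.39 to 0.10 and a median of -0.15, and 1 of them, Esam, had an unadjusted p under 0.05 (4.44% of all probe sets were lower at that p). Over all probe sets 50.9% had the lower mean. The count was 6 of 9 without voglibose mouse 4. Of 9 fibroblast markers 8 were lower in voglibose mice (median -0.13), with a summed log2 signal of 15.41 to 16.43 in water and 15.39 to 16.36 in voglibose mice. Of 9 macrophage markers 7 were lower (median -0.19), with sums of 12.30 to 13.15 and 12.21 to 13.28, and the part of these cells in the junction genes was not tested. Esam, an adhesion molecule of endothelial tight junctions and of platelets, had 6.20, 6.55, 6.58 and 6.76 in water mice. It had 6.33, 6.16, 5.84 and 6.19 in voglibose mice. The groups overlapped only through water mouse 1, and the difference was -0.39 ± 0.17 (unadjusted p = 0.038, adjusted p = 0.659).

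Cldn5, the main claudin of endothelial tight junctions, was the 1 member whose groups did not overlap, as was the case for 4.35% of all probe sets, and for 2.53% with the voglibose mice lower. It had 4.54, 4.62, 4.53 and 4.99 in water mice and 4.44, 4.47, 4.44 and 4.35 in voglibose mice. The gap between the groups was small, its signal lay between the lower quartile and the median of the array, and the difference of -0.25 ± 0.15 had an unadjusted p of 0.121. Without water mouse 4, the highest, it was -0.14.

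Cdh5, the adhesion protein of endothelial adherens junctions, had 8.14, 8.12, 8.20 and 7.59 in water mice and 7.74, 8.05, 8.27 and 7.44 in voglibose mice. Each group held both high and low mice. The difference of -0.14 ± 0.21 was 0.008 without voglibose mouse 4. Pecam1, the adhesion molecule CD31 that also sits on leukocytes and platelets, had 9.08, 9.38, 9.07 and 9.52 in water mice and 8.86, 9.26, 10.23 and 9.09 in voglibose mice. Voglibose mouse 3 stood above all others, and the difference of 0.10 ± 0.27 was -0.19 without it.

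Emcn encodes endomucin, a mucin-like protein of capillaries and veins. It had 9.18, 9.77, 9.21 and 9.53 in water mice and 9.20, 9.18, 9.62 and 9.11 in voglibose mice, and the difference of -0.15 ± 0.18 was -0.03 without water mouse 2. Cd34, a sialomucin of endothelium and also of stromal cells, differed by -0.18 ± 0.23, with its highest signal in water mouse 2 (9.67) and its lowest in voglibose mouse 4 (8.63). Icam2, a ligand for leukocyte integrins, differed by -0.15 ± 0.17. Ecscr, a small receptor of migrating endothelial cells, differed by -0.29 ± 0.19 and Clec14a, a lectin-like endothelial receptor, by -0.01 ± 0.17.

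Products of capillaries and secreted endothelial proteins were split, with 2 of 4 higher in voglibose mice. At an unadjusted p under 0.05, 1 member was higher, Vwf, beside 3.08% of all probe sets. Vwf encodes von Willebrand factor, which tethers platelets and is stored in endothelial granules. It had 5.60, 6.03, 5.65 and 5.91 in water mice and 6.37, 6.50, 5.98 and 6.20 in voglibose mice. Only voglibose mouse 3 lay within the range of the water mice, and voglibose mice 1, 2 and 4 lay above it. The difference was 0.47 ± 0.17 (1.38-fold), with an unadjusted p of 0.0165 and an adjusted p of 0.652, and it ran from 0.39 to 0.56 with each mouse left out.

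Megakaryocytes and platelets carry Vwf as well, and 5 of 6 measured platelet markers were also higher in voglibose mice, with a median difference of 0.21. Their summed log2 signal ran from 8.00 to 8.30 in water and from 8.07 to 8.50 in voglibose mice, and their part in the Vwf difference was not tested.

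Plvap forms the diaphragms of capillary fenestrae, the pores of the villus capillaries. It had 7.49, 8.03, 7.93 and 7.80 in water mice and 7.60, 7.90, 7.80 and 6.82 in voglibose mice. Apart from voglibose mouse 4 the groups lay within the same range, and the difference of -0.28 ± 0.23 was -0.05 without that mouse. Mmrn2, a matrix protein that binds VEGF-A and CLEC14A, differed by -0.25 ± 0.17. Gpihbp1, which carries lipoprotein lipase to the capillary lumen, differed by 0.15 ± 0.18.

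The transcription factors of endothelial identity were higher in voglibose mice for 3 of 4 genes, with differences from -0.06 to 0.25. Erg, an ETS factor that maintains the junctions and the resting state of endothelium, had 5.28, 6.09, 6.03 and 6.15 in water mice. It had 6.07, 6.50, 6.25 and 5.72 in voglibose mice. Water mouse 1 stood low and the groups overlapped; the difference of 0.25 ± 0.23 was 0.05 without that mouse. The SOXF factors Sox7, Sox17 and Sox18, which act in arterial and lymphatic fate, differed by 0.04 ± 0.16, -0.06 ± 0.17 and 0.11 ± 0.17. Their signals were dim, with Sox17 between 2.68 and 3.30, so that a change could be missed.

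Lymphatic genes were split evenly, 3 higher and 3 lower in voglibose mice. At an unadjusted p under 0.05 there were 0 of the 6, beside 7.52% of all probe sets. Flt4, which encodes VEGFR3, the receptor for VEGF-C and VEGF-D, had 5.47, 5.98, 5.91 and 5.67 in water mice. It had 6.20, 6.17, 5.85 and 5.69 in voglibose mice. Voglibose mice 1 and 2 lay above all water mice and the other 2 among them, with a difference of 0.22 ± 0.17 (0.12 without water mouse 1). Prox1, the factor that specifies lymphatic identity, had 6.24, 6.63, 6.43 and 5.89 in water mice and 6.55, 6.11, 6.68 and 6.82 in voglibose mice. The groups overlapped, and the difference was 0.24 ± 0.20. Leaving out water mouse 4 gave 0.11, and leaving out voglibose mouse 2 gave 0.39. Prox1 is also made by enteroendocrine cells, of whose 5 measured markers 1 was higher and 4 were lower in voglibose mice (median difference -0.13). The part of these cells in the Prox1 difference was not tested.

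Lyve1, a hyaluronan receptor of lymphatic capillaries that some macrophages also carry, had 9.31, 9.39, 9.46 and 8.77 in water mice and 9.06, 9.04, 9.46 and 9.12 in voglibose mice. Water mouse 4 was the lowest, and the difference was -0.06 ± 0.18. Pdpn, podoplanin, marks lymphatic endothelium and also fibroblastic reticular cells. It had 7.66, 7.23, 6.91 and 7.24 in water mice and 7.10, 7.32, 7.16 and 6.99 in voglibose mice, a difference of -0.12 ± 0.17 that was 0.02 without water mouse 1. The macrophage and fibroblast markers are given beside the junction genes, and the part of these cells in the lymphatic genes was not tested.

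Mmrn1 encodes multimerin 1, and its level varied the most of the 6, with 10.26, 10.62, 10.63 and 10.88 in water mice and 9.50, 10.08, 11.04 and 10.40 in voglibose mice. The voglibose mice held both the lowest and the highest value. The difference was -0.34 ± 0.28, and it was -0.60 without voglibose mouse 3 and -0.09 without voglibose mouse 1. Reln, which encodes the secreted protein reelin, made by lymphatic endothelium among other cells, differed by 0.03 ± 0.17.

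A single mouse held many of the lowest values. Voglibose mouse 4 had the lowest signal of all 8 mice in 11 of 24 blood members (Kdr, Flt1, Tek, Eng, S1pr1, Cdh5, Emcn, Cldn5, Cd34, Plvap and Mmrn2) and in 0 of 6 lymphatic members. Over all probe sets this mouse was the lowest in 9.41%, and with 6 genes a count of 0 lies near that share. Among all members above the median signal the count was 8 of 16, beside 9.11% of all probe sets above the median. The mean of the blood members lay at -0.27 in this mouse, relative to the mean of all mice, and between -0.07 and 0.13 in the other 7.

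The mean of the lymphatic members in the same mouse lay at 0.00. There Prox1 had its highest signal of the 8 mice (6.82), and Reln lay above the means of both groups. Flt4, Pdpn and Lyve1 lay below the means of both groups and Mmrn1 between them. The lymphatic mean minus the blood mean was 0.27 in this mouse, beside -0.15 to 0.05 in the other mice. Of 18 further genes that lymphatic endothelium makes, described further on, this mouse was lowest in 3, with a mean of -0.04. Other endothelial genes, a list of 41 measured genes that are no members, gave their lowest signal in voglibose mouse 4 for 11 genes, with a mean of -0.14, the lowest of the 8 mice. Some genes of this list are made by other cells too. The smooth muscle markers of this mouse lay at 0.05, the enterocyte markers at -0.06, the T and B cell markers at -0.54, the macrophage markers at -0.32 and the fibroblast markers at -0.31. The part of these in the low blood genes was not tested. These counts describe 1 mouse and carry no test. At the other end, voglibose mouse 3 had the highest signal in 8 of 30 members, beside 9.03% of all probe sets.

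**Figure D3:**
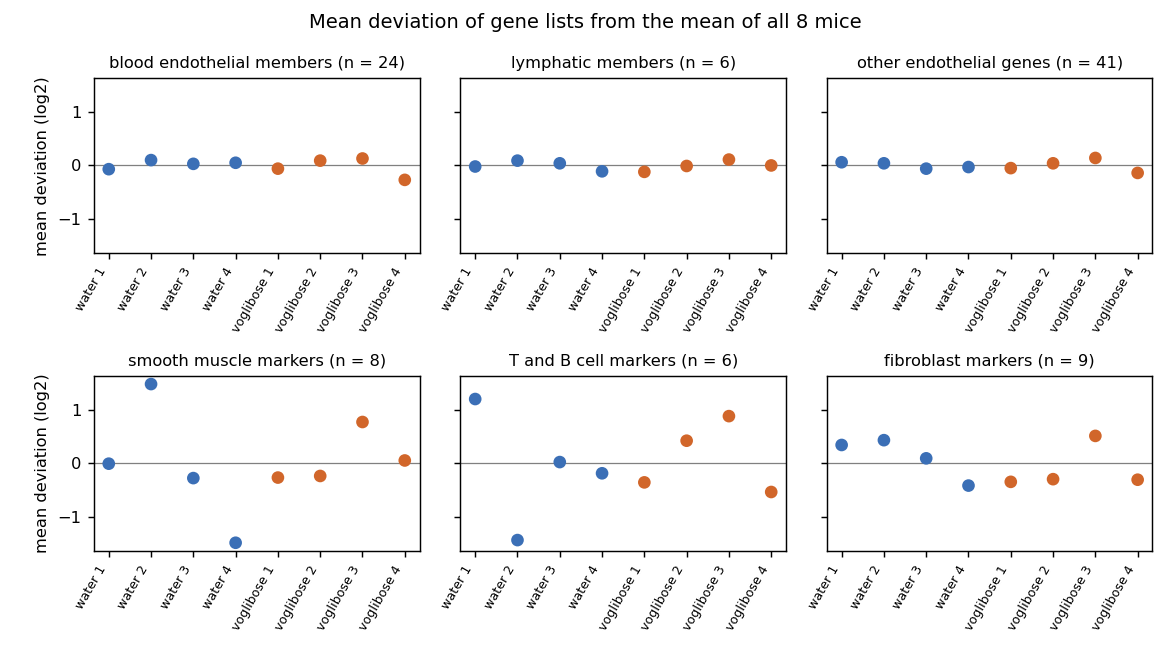
Mean deviation of 6 gene lists in each mouse from the mean of all 8 mice (vertical axis, log2; blue water, orange voglibose), with the number of genes in each title and the same scale in every panel. The endothelial lists stay within 0.27 of 0, while smooth muscle markers run from -1.49 to 1.48.

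The ligands of these receptors were read from a list of 33 measured ligands, co-receptors and partners, of which 21 were higher and 12 lower in voglibose mice. An unadjusted p under 0.05 was reached by 3 of the 33 (9.09%, beside 7.52% of all probe sets), and no gene passed over all probe sets. Vegfa, the main growth factor of blood capillaries, had 11.16, 11.24, 10.77 and 10.75 in water mice. It had 12.14, 11.93, 11.20 and 11.39 in voglibose mice. Voglibose mice 1, 2 and 4 lay above all water mice and mouse 3 at their upper end. The difference was 0.69 ± 0.22 (1.61-fold; 95% interval 0.19 to 1.18), with an unadjusted p of 0.0107 and an adjusted p of 0.652, and it ran from 0.53 to 0.84 with each mouse left out.

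Vegfd, a ligand of VEGFR3, had 7.37, 7.33, 6.76 and 7.38 in water mice and 8.15, 7.78, 7.56 and 7.43 in voglibose mice. The groups did not overlap, as in 1.82% of all probe sets in this direction, and the difference was 0.52 ± 0.20 (unadjusted p = 0.0249, adjusted p = 0.658). Without water mouse 3, which stood low, it was 0.37. Vegfc, the main lacteal growth factor, differed by 0.09 ± 0.16, and Vegfb, a ligand of VEGFR1, by -0.11 ± 0.16.

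Angpt2, which is released by activated endothelium and competes at TIE2, had 7.00, 6.93, 6.36 and 7.44 in water mice. It had 6.44, 6.32, 6.54 and 6.54 in voglibose mice. Water mouse 3 lay among the voglibose mice and the other 3 water mice above them, with a difference of -0.47 ± 0.21 (unadjusted p = 0.0428, adjusted p = 0.659) that was -0.30 without water mouse 4. Angpt1, the activating ligand of TIE2, differed by 0.14 ± 0.23. Calcrl, the adrenomedullin receptor that lacteals need, differed by -0.39 ± 0.19, with an unadjusted p of 0.0629.

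**Figure D4:**
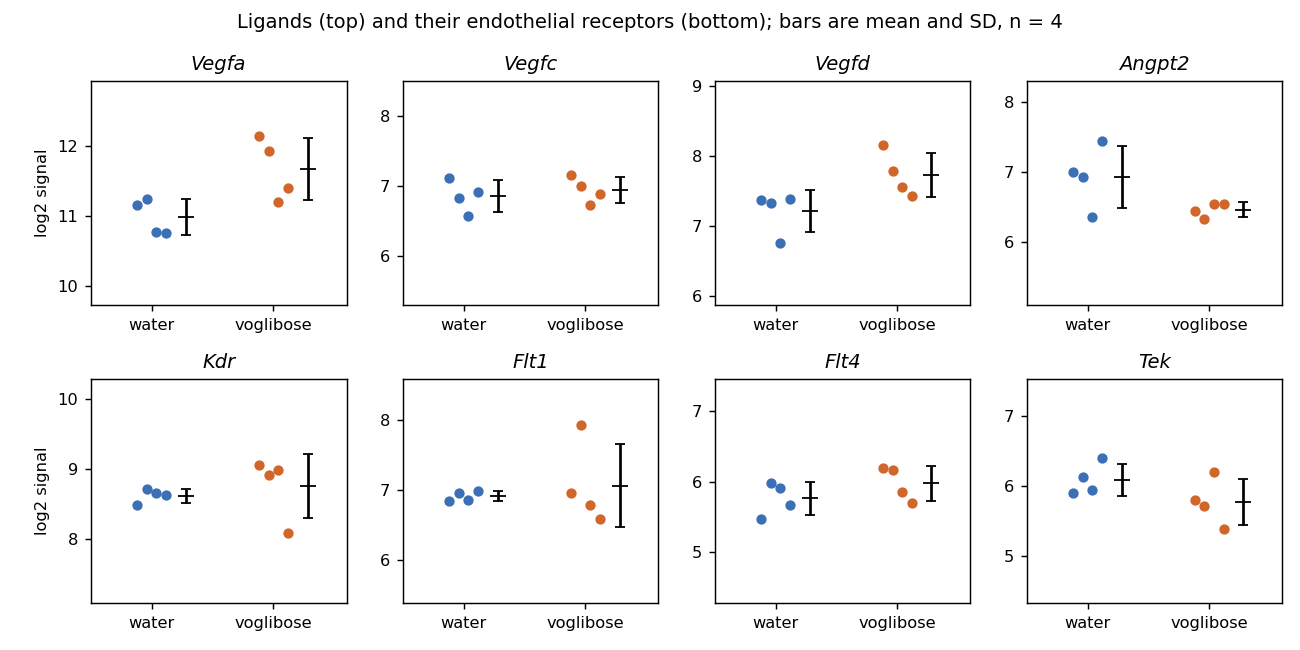
Log2 signal in each mouse (points; blue water, orange voglibose) of 4 ligands (top row) and 4 endothelial receptors (bottom row), with the mean and SD of each group beside the points; every panel spans the same range of log2 units around its own centre. Vegfa lies at 10.75 to 11.24 in water and 11.20 to 12.14 in voglibose mice, and the SD of Kdr is 0.10 in water and 0.45 in voglibose mice.

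Of the 41 further endothelial genes, 19 were higher and 22 lower in voglibose mice, with a median difference of -0.02, and 2 (4.88%) had an unadjusted p under 0.05, beside 7.52% of all probe sets. These were Myct1, a target of the ETS factor ETV2 in mouse, with a difference of 0.37 ± 0.15, and Elk3, an ETS repressor, with -0.50 ± 0.21. Vcam1, the adhesion molecule of inflamed endothelium that stromal cells also carry, differed by -0.42 ± 0.20, and Cyyr1 by 0.41 ± 0.19. Of 18 further genes that lymphatic endothelium is known to make, together with other cells, 14 were lower and 4 higher in voglibose mice (median -0.18). Over all probe sets 50.9% were lower. At an unadjusted p under 0.05 there were 0 of 18, beside 7.52% of all probe sets. The list mean of single mice overlapped between groups, at -0.09 to 0.28 in water and -0.26 to 0.19 in voglibose mice. Among the 18, Gja1, a gap junction protein, differed by -0.29 ± 0.21 and Nr2f2, a factor of venous and lymphatic fate, by -0.29 ± 0.23.

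Genes of the high endothelial venules of lymphoid tissue did not share 1 pattern. Fut7, a fucosyltransferase that builds selectin ligands there and in leukocytes, was the 1 of 5 measured genes with an unadjusted p under 0.05 (0.0369, adjusted p = 0.659). Over all probe sets 7.52% reached that p. It had 4.32, 4.42, 4.20 and 4.30 in water mice and 4.76, 4.69, 4.50 and 4.55 in voglibose mice. The groups did not overlap, as in 1.82% of all probe sets in this direction, and the difference was 0.31 ± 0.13 in the dim part of the scale. With each mouse left out, the unadjusted p of Fut7 was under 0.05 in 3 of 8 refits. Chst4, a sulfotransferase of the same ligands, was highest in voglibose mouse 4 (7.45, with 6.10 to 6.99 elsewhere). Ubd, a ubiquitin-like modifier, was highest in water mouse 4 (8.91) and voglibose mouse 2 (8.69), with 5.28 to 6.67 elsewhere. The other 2 genes were highest in another pair of mice. Madcam1, the address molecule of gut venules through which lymphocytes enter, had 6.48 in water mouse 1 and 6.10 in voglibose mouse 3, and 4.27 to 5.03 in the other mice. Glycam1, a ligand of L-selectin on high endothelial venules that was picked after its values were seen, had 9.79 and 9.49 in the same mice and at most 5.68 in the others. The B cell gene Cd79a, picked in the same way, was also highest in these mice, at 10.39 and 9.72, with 6.96 to 9.05 elsewhere. The groups overlapped in Madcam1, Glycam1 and Cd79a.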

How the data were processed

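Gene expression in ileum was measured on 8 Affymetrix arrays, 4 from voglibose and 4 from water mice, with 250 ng of RNA each. The authors deposited a log2 signal for each probe set. Per the submitters' processing notes, RMA and the Transcriptome Analysis Console were used; no version, setting or genome build is given in the sources used here. RMA normalizes across arrays, so a change in total RNA would not be seen, and dim probe sets understate differences. The log2 scale was read from the values.

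Groups came from the sample labels, which name 4 mice per group and no batch; p-values measure the spread between these mice. All 22206 probe sets were tested with limma 3.58.1 in R 4.3.3 (lmFit, eBayes), 2-sided, with Benjamini-Hochberg adjustment over all of them and a threshold of 0.05. Differences are voglibose minus water with moderated SE and 95% intervals. The fit was tested on simulated data. The number of arrays limits the precision.

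Gene names came from the platform annotation, updated through RefSeq (GRCm38.p6). Each member had 1 probe set; for a gene with several, the one with the highest mean was to be used. The members, the gene lists and the tests were chosen with earlier results of these data known. All members are named, and from each other list up to 4 genes with the smallest p and the VEGF and angiopoietin ligands, though not every such gene is described. Fabp1, Fabp2, Epcam, Apoa1 and Glycam1 fall outside this rule. Cd79a falls within it, though it was picked after its values were seen. Alternatives were a replicate block, a further quantile normalization, trend and robust fitting, a filter on dim probe sets, the mean of all probe sets of a gene, leaving out each mouse, and another place for Mmrn1.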

Additional observations from a re-analysis of the deposited data

Results flagged for a closer look

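A sample far from the 3 others of its group was found in 6 of 98 groups of 4 mice, and chance alone flags about 1 group in 20. Kdr in voglibose mouse 4 had 8.08, with the other voglibose mice at 8.91 to 9.05. Eng in the same mouse had 6.64, with the others at 7.83 to 7.96. Cdh5 in water mouse 4 had 7.59, with the others at 8.12 to 8.20. Erg in water mouse 1 had 5.28, with the others at 6.03 to 6.15. Vegfd in water mouse 3 had 6.76, with the others at 7.33 to 7.38. Ubd in water mouse 4 had 8.91, with the others at 6.31 to 6.67.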

How the results depend on the processing

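No probe set and no member passed the adjusted test under any alternative, and the smallest adjusted p of a member in any refit was 0.515. Members at an unadjusted p under 0.05 numbered 2, and 1 with the replicate block, with a further quantile normalization, with trend and robust fitting, and without both water mice 2 and 4 (an alternative chosen after seeing the data); they ranged from 0 to 3 with each mouse left out. Probe sets at that p numbered 1671, 969 (without voglibose mouse 1) to 1906 with each mouse left out, and 988 when only probe sets above the median were tested, where 10 members had the lower mean, since fewer were tested. The median of the blood members ran from -0.17 to 0.008 and that of the lymphatic members from -0.05 to 0.03 with each mouse left out. With Mmrn1 among the blood members the medians were -0.14 and 0.03.

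Of the 30 members, 18 kept their direction in every refit. Leaving out each mouse turned the direction of these differences: Pecam1 from -0.19 to 0.26, Cdh5 from -0.28 to 0.008, Flt1 from -0.14 to 0.31, Sox7 from -0.083 to 0.13, Sox17 from -0.19 to 0.01, Clec14a from -0.14 to 0.11, S1pr1 from -0.30 to 0.008, Lyve1 from -0.22 to 0.013, Pdpn from -0.23 to 0.016, Reln from -0.087 to 0.16, Vegfb from -0.18 to 0.008, Vegfc from -0.009 to 0.17 Angpt1 from -0.015 to 0.32 and Madcam1 from -0.39 to 0.468. Lyve1 was 0.018 after a further quantile normalization. Without water mice 2 and 4, Emcn was 0.082, Sox7 -0.015, Sox18 -0.073, Clec14a 0.075 and Reln -0.038. The cause was not tested.

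The replicate numbers of the titles did not pair the mice: deviations from the group means of same-numbered mice correlated at 0.015, -0.324, 0.014 and -0.184. With the number as a block, 1529 probe sets had an unadjusted p under 0.05 and 0 passed. Dim members such as Sox17 limit what could be seen.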
